A study of Mus musculus with 15 samples.

Results

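The genes described here encode mitochondrial ribosomal proteins, measured on arrays in ILC2s, the innate lymphoid cells of group 2, from the lungs of mice. They were taken as all genes with an array feature annotated with exactly 1 gene symbol that begins with Mrpl or Mrps and a digit, pseudogenes left out. This gave 80 features of 71 genes among the 22180 genes with a 1-symbol feature, 43 of the large subunit (Mrpl) and 28 of the small subunit (Mrps) by symbol. Of the 9 genes with several features, the brightest on average over the 15 arrays stood for the gene. Another 7 genes of a mouse gene table, Mrpl30, Mrpl33, Mrpl41, Mrpl43, Mrpl44, Mrpl53 and Mrps6, lay only on features that several symbols share and were not analysed here.

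The mitochondrial ribosome sits in the mitochondrial matrix and translates the few messenger RNAs of the mitochondrial genome, whose products are core subunits of the respiratory chain and the ATP synthase. All of its proteins are encoded in the nucleus, made in the cytosol and imported, while its ribosomal RNAs come from the mitochondrial genome. Some of its proteins have counterparts in the bacterial ribosome and others are found only in mitochondria.

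ILC2s live in tissues, lack rearranged antigen receptors and release type 2 cytokines. There were 15 Affymetrix arrays, 3 for each of 5 groups. Neonatal cells came from untreated mice 10 days old, whose sex the labels do not give. Effector cells came from adult females and adult males given IL-33, a cytokine from epithelium that activates these cells, by the nose on 3 days, with the lungs taken 1 day after the last of them. Naive cells came from untreated females and males 8 weeks old. The sources used here give neither strain, nor the age of the effector adults, nor the number of mice per replicate, so p-values measure the spread between these arrays. No vehicle-dosed group was among the arrays, so IL-33 and the dosing itself cannot be told apart.

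Values are log2 expression levels, and a difference of 1 is a 2-fold change. A linear model was fitted with limma to 16257 genes on all 15 arrays, and a gene was called higher or lower at a Benjamini-Hochberg adjusted p under 0.05. Errors given after a log2 difference are the standard errors of that fit. All 10 ILC2 markers lay above the background range in each group. So did all 6 macrophage, 5 epithelial and 4 endothelial markers, so that range alone does not set cell types apart. No array had a mean level above 5.99 over any of those lists, against 8.73 or more over the ILC2 list. Gata3, the lineage's transcription factor, averaged 8.75 in neonates, 8.72 in effector adults and 8.83 in naive adults. Il7r, the interleukin-7 receptor, averaged 11.05 in neonates, 10.6 in effector adults and 11.71 in naive adults. The mean level of 6 T cell markers spanned 5.80 to 6.08 in neonates, 5.16 to 5.47 in effector adults and 5.52 to 5.79 in naive adults, and Cd3e was higher in neonates than in effector adults by 1.40 ± 0.25. Other lists of cell type markers are described beside the results. Across the whole table naive male replicates 2 and 1 and neonatal replicate 2 had the lowest mean correlation with the other arrays, 0.889, 0.895 and 0.898, against 0.910 to 0.938 on the other 12.

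Promoter sequence from RefSeq (GRCm38.p6) was available for 62 of the 71 genes, on 16 chromosomes, as a window of 250 bases before and 50 bases after each annotated start. Motifs of 5 transcription factor families known from promoters of nuclear genes for mitochondrial proteins or ribosomes were searched on both strands. Below are 6 stretches of 120 bases that end at the base before the start, printed 5′ to 3′ on the gene's strand, with a motif in capitals. The first 3 belong to genes that have large rises in effector cells and hold the motif shown, so they do not represent all such genes. Mrpl54, Mrpl16, Mrps18b and Mrpl1, with larger rises than Mrps27, are not printed. Mrps18a carries the same motif and did not pass the test, Mrpl12 shows the NRF1 motif, and Mrpl24 was the gene called lower.
Mrps22: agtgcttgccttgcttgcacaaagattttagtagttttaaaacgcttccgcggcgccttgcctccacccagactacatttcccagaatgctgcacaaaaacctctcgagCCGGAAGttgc
Mrps27: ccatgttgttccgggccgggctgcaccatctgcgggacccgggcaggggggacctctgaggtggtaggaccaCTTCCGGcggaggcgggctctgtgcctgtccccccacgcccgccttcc
Mrpl34: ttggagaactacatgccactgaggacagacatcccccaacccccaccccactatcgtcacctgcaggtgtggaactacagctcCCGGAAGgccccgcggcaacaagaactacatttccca
Mrps18a: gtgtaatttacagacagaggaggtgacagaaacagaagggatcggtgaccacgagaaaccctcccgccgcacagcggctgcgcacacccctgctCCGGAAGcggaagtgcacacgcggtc
Mrpl12: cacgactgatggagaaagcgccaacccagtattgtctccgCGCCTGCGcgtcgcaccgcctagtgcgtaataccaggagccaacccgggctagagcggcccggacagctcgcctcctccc
Mrpl24: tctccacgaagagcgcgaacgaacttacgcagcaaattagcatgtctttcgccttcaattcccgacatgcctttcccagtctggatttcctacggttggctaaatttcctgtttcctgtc
Mrps22 lies on the minus strand at chr9:98601680-98601799, with the ETS motif CCGGAAG, which GABPA binds, 11 to 5 bases before the start. Mrps27 (plus strand, chr13:99344666-99344785) has it on the opposite strand, 48 to 42 bases before the start. In Mrpl34 (plus strand, chr8:71464806-71464925) it lies 37 to 31 bases before the start, and in Mrps18a (plus strand, chr17:46110884-46111003) 26 to 20 bases before it. The Mrpl12 stretch (plus strand, chr11:120484517-120484636) holds the core of the NRF1 motif, CGCANGCG, 80 to 73 bases before the start, read on the opposite strand, and the same core recurs 43 to 50 bases after it. The Mrpl24 window (plus strand, stretch shown chr3:87919424-87919543) holds none of the motifs searched.

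The GABPA motif CCGGAAG was found in 23 of the 62 windows (37.1%), against 9.93% of the 27025 genes with such a window. The YY1 motif AANATGGCG was in 11 windows (17.7%, against 2.76%) and the NRF1 core in 17 (27.4%, against 9.22%). GGGCGGG, which SP1 binds, was in 27 (43.5%, against 27.9%), and the E-box CACGTG in 5 (8.06%, against 8.09%). Among the 107 matches, 2 pairs of matches to different motifs overlapped, counted within a gene by position from the start. The windows of 56 cytosolic ribosomal protein genes held the GABPA motif in 41.1%, the YY1 motif in 8.93% and the NRF1 core in 17.9%. Among mitochondrial ribosomal protein genes called higher in effector than in naive adults, 19 of 45 windows (42.2%) held the GABPA motif, against 4 of the 16 tested windows of genes not called higher (25%). The NRF1 core was in 15 (33.3%) and 2 (12.5%) of the same windows. The YY1 motif was in 7 (15.6%) and 4 (25%), the SP1 motif in 19 (42.2%) and 7 (43.8%), and the E-box in 5 (11.1%) and 0. A match is a run of letters and no evidence of binding.

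Of the 71 genes, 70 passed the filter on low values. Mrps36, whose product is now known as a component of the 2-oxoglutarate dehydrogenase complex, did not. Its level was 3.13, 3.37 and 3.36 on the neonatal arrays, 3.07 to 4.13 (median 3.65) in effector adults and 2.96 to 3.72 (median 3.42) in naive adults. The background range was set by the upper quartile of 1400 features of sensory receptor genes, 3.72 in neonates, 3.35 in effector adults and 4.07 in naive adults. Mrps36 was within it in neonates and naive adults, as was Mrps14 in naive adults (mean 3.87).

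Median levels over the genes of a subunit separated effector arrays from the others. The median of the 43 large subunit genes was 6.70, 6.24 and 6.77 on the neonatal arrays. It was 7.20, 7.41 and 7.16 in effector females, 7.32, 7.48 and 7.42 in effector males, 6.86, 6.70 and 6.82 in naive females, and 6.54, 6.28 and 6.27 in naive males. Every effector array lay above every neonatal and naive array, and the naive males lay below the naive females. The tested small subunit genes gave 6.40, 6.25 and 6.68 in neonates, 6.96, 7.22 and 6.95 in effector females, 7.07, 7.05 and 7.36 in effector males, 6.61, 6.61 and 6.63 in naive females, and 6.37, 6.26 and 6.28 in naive males. Here too the effector arrays lay above the rest. The pooled spread of these array medians within groups was 0.168 (SD) for the large and 0.144 for the small subunit. The median over all 16257 genes followed a like order with smaller steps, 5.42 to 5.54 in neonates, 5.63 to 5.67 in effector adults, 5.49 to 5.53 in naive females and 5.36 to 5.43 in naive males. Its part in the results was not tested. In bulk RNA such as this, fewer cells of a type and less RNA per cell cannot be told apart.

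**Figure D1:**
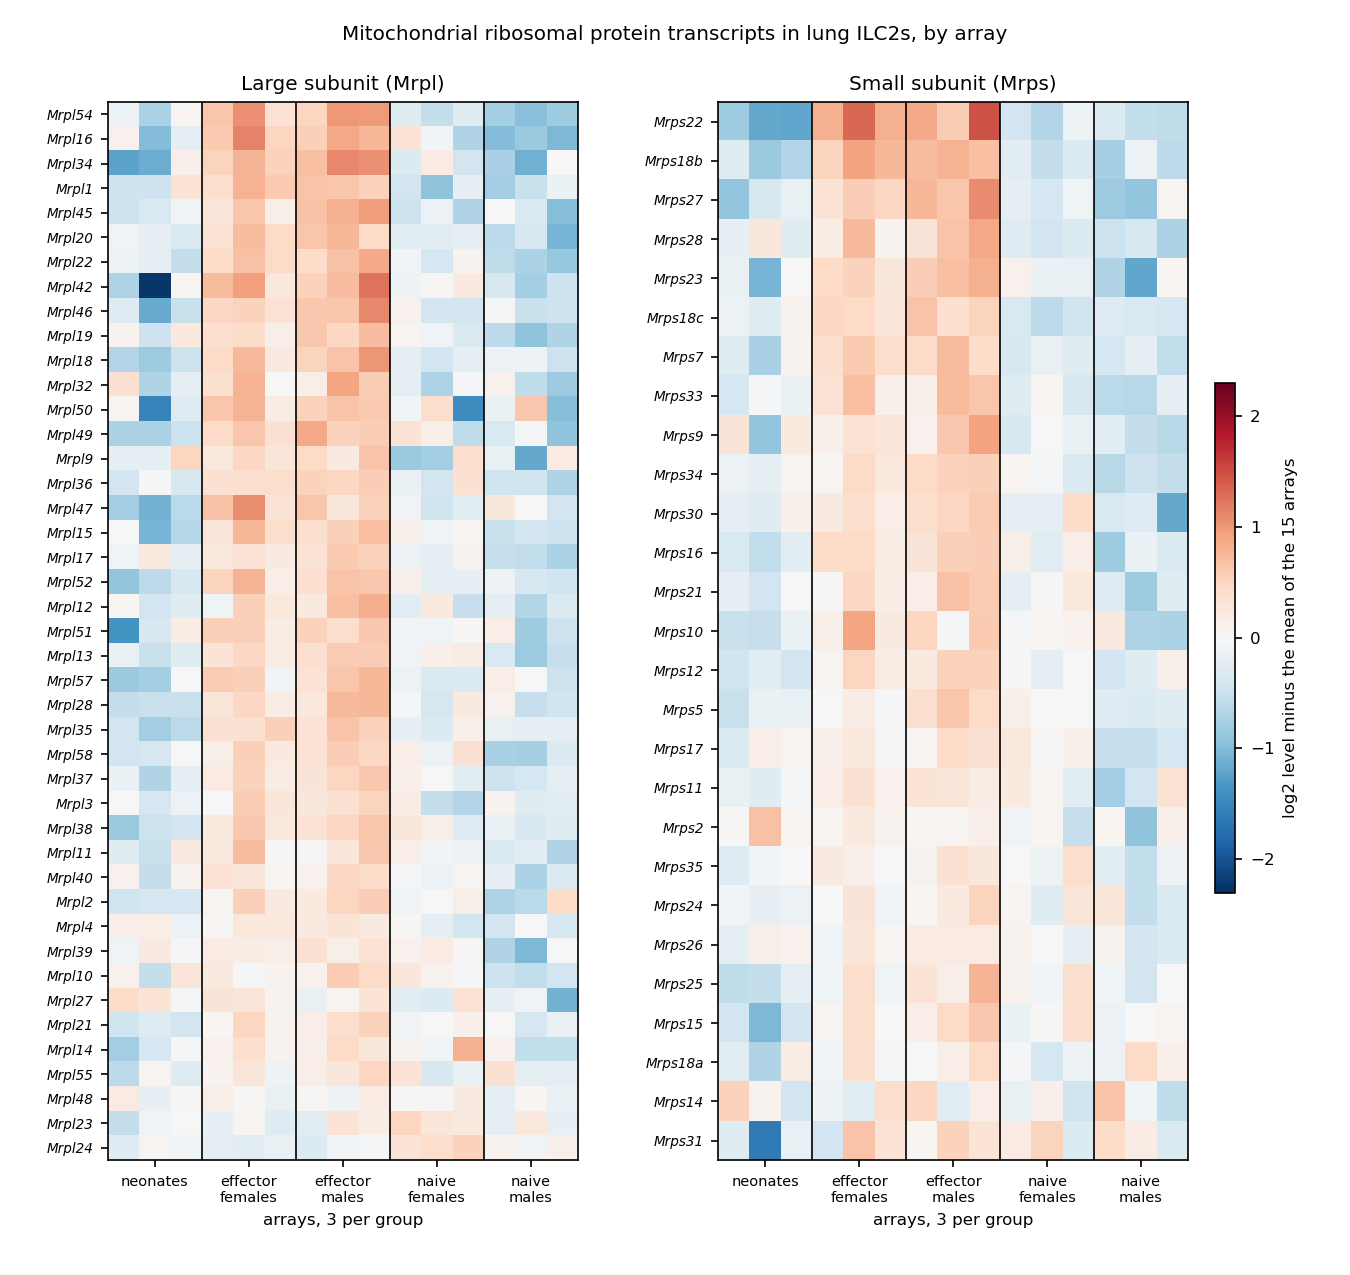
Level of each of the 70 tested genes on each array as the log2 difference from that gene's mean over the 15 arrays, large subunit on the left and small on the right, sorted by the effector minus naive difference. Columns are arrays in their 5 groups of 3. Most rows are red on the effector arrays and blue on neonatal and naive arrays, Mrpl24 at the bottom left is the reverse for naive females, and Mrpl42 on neonatal replicate 2 is the darkest blue.

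The first comparison asked how IL-33-activated adult cells differed from naive adult cells. Transcripts of both subunits were higher in effector adults: 36 of 43 large subunit and 17 of 27 small subunit genes were called higher, 53 of 70 in all (75.7%), where 23.7% of all genes tested were called higher. Only Mrpl24 was called lower (10.9% of all genes). The median difference was 0.69 for the large and 0.57 for the small subunit, against 0.03 over all genes, and single genes lay between -0.41 and 1.43. Effector and naive arrays did not overlap for 34 of the 70 genes, all higher in effector adults, 23 of the large and 11 of the small subunit (15.2% of all genes). By structure, the products of Mrps18a and Mrps30 sit in the large subunit in spite of their symbols. Counting them there gave 37 of the large and 16 of the small subunit genes called higher and 1 lower.

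Mrps22, a small subunit protein found only in mitochondria, showed the largest difference. Its level spanned 6.72 to 7.61 (median 6.99) in effector adults and 5.47 to 6.03 (median 5.64) in naive adults. No effector array came down to a naive one. The difference was 1.43 ± 0.17, a 2.69-fold higher level (limma adjusted p = 1.1e-05, n = 6 arrays each).

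Among large subunit genes Mrpl54, for a protein found only in mitochondria, led. It spanned 7.24 to 7.95 (median 7.72) in effector adults and 5.95 to 6.63 (median 6.24) in naive adults, without overlap, a difference of 1.36 ± 0.16 (2.56-fold, limma adjusted p = 1.39e-05). Mrpl16, the counterpart of bacterial protein L16 near the catalytic centre, spanned 7.45 to 8.11 (median 7.64) in effector adults and 5.93 to 7.27 (median 6.19) in naive adults. Its naive females lay higher, at 7.27, 6.90 and 6.27, than its naive males, at 5.97, 6.11 and 5.93. The difference was 1.30 ± 0.20 (limma adjusted p = 0.000162). Mrpl34 and Mrpl1, counterparts of bacterial L34 and of L1 in the stalk at the tRNA exit, followed with 1.18 ± 0.23 and 1.11 ± 0.17, again without overlap.

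In the small subunit Mrps18b, 1 of 3 paralogs related to bacterial S18, averaged 8.16 ± 0.14 in effector adults and 6.99 ± 0.24 in naive adults (SD, n = 6 each), 2.25-fold higher (limma adjusted p = 1.46e-05). Its paralogs differed from each other. Mrps18c averaged 6.99 ± 0.13 in effector adults and 6.12 ± 0.11 in naive adults, a difference of 0.87 ± 0.11 (limma adjusted p = 2.09e-05). Mrps18a averaged 7.44 ± 0.23 in effector adults and 7.27 ± 0.29 in naive adults, and the difference of 0.17 ± 0.16 did not pass the test (limma adjusted p = 0.452), with overlapping arrays. Differences between the paralogs' responses were not tested. Mrps27, a pentatricopeptide repeat protein, and Mrps28 were higher by 1.04 ± 0.18 and 0.91 ± 0.15, both without overlap.

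Mrpl12, Mrpl58 and Mrps30 also rose. Mrpl12, whose product forms the flexible stalk that engages translation factors, averaged 5.58 ± 0.34 in effector adults and 4.88 ± 0.31 in naive adults (SD, n = 6 each), a difference of 0.70 ± 0.17 (limma adjusted p = 0.00494). Effector females at 5.07, 5.71 and 5.42 overlapped naive females at 4.92, 5.40 and 4.63, whereas effector males at 5.40, 5.86 and 6.0 lay above naive males at 4.96, 4.50 and 4.84. Mrpl58, a peptidyl-tRNA hydrolase built into the large subunit, was higher by 0.62 ± 0.14 (limma adjusted p = 0.00241). Mrps30 was higher by 0.68 ± 0.17 (limma adjusted p = 0.00548). For Mrpl58 and Mrps30, too, effector and naive arrays overlapped.

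Mrpl24, the counterpart of bacterial L24, an early protein in large subunit assembly, moved the other way. It spanned 9.64 to 9.92 (median 9.76) in effector adults and 9.87 to 10.48 (median 10.17) in naive adults. The naive females at 10.27, 10.36 and 10.48 were the highest arrays, and naive males at 10.04, 9.87 and 10.08 reached into the effector range. The difference was -0.41 ± 0.11 (limma adjusted p = 0.00864). With every array centred at its median over all features it was -0.27 and no longer called (limma adjusted p = 0.0704).

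The 16 tested genes without a call were Mrpl14, Mrpl23, Mrpl27, Mrpl48, Mrpl50, Mrpl55, Mrps2, Mrps11, Mrps14, Mrps15, Mrps18a, Mrps24, Mrps25, Mrps26, Mrps31 and Mrps35. Proteins with bacterial counterparts and proteins found only in mitochondria were called higher in 33 of 43 and 19 of 25 genes, with medians of 0.62 and 0.69. Where a gene had a second, dimmer feature, it went the same way for 6 of 9 genes. For Mrpl10, Mrps5 and Mrps17 the used feature gave 0.42, 0.39 and 0.38 and the other feature -0.25, -0.25 and -0.06, so their calls rest on 1 feature.

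**Figure D2:**
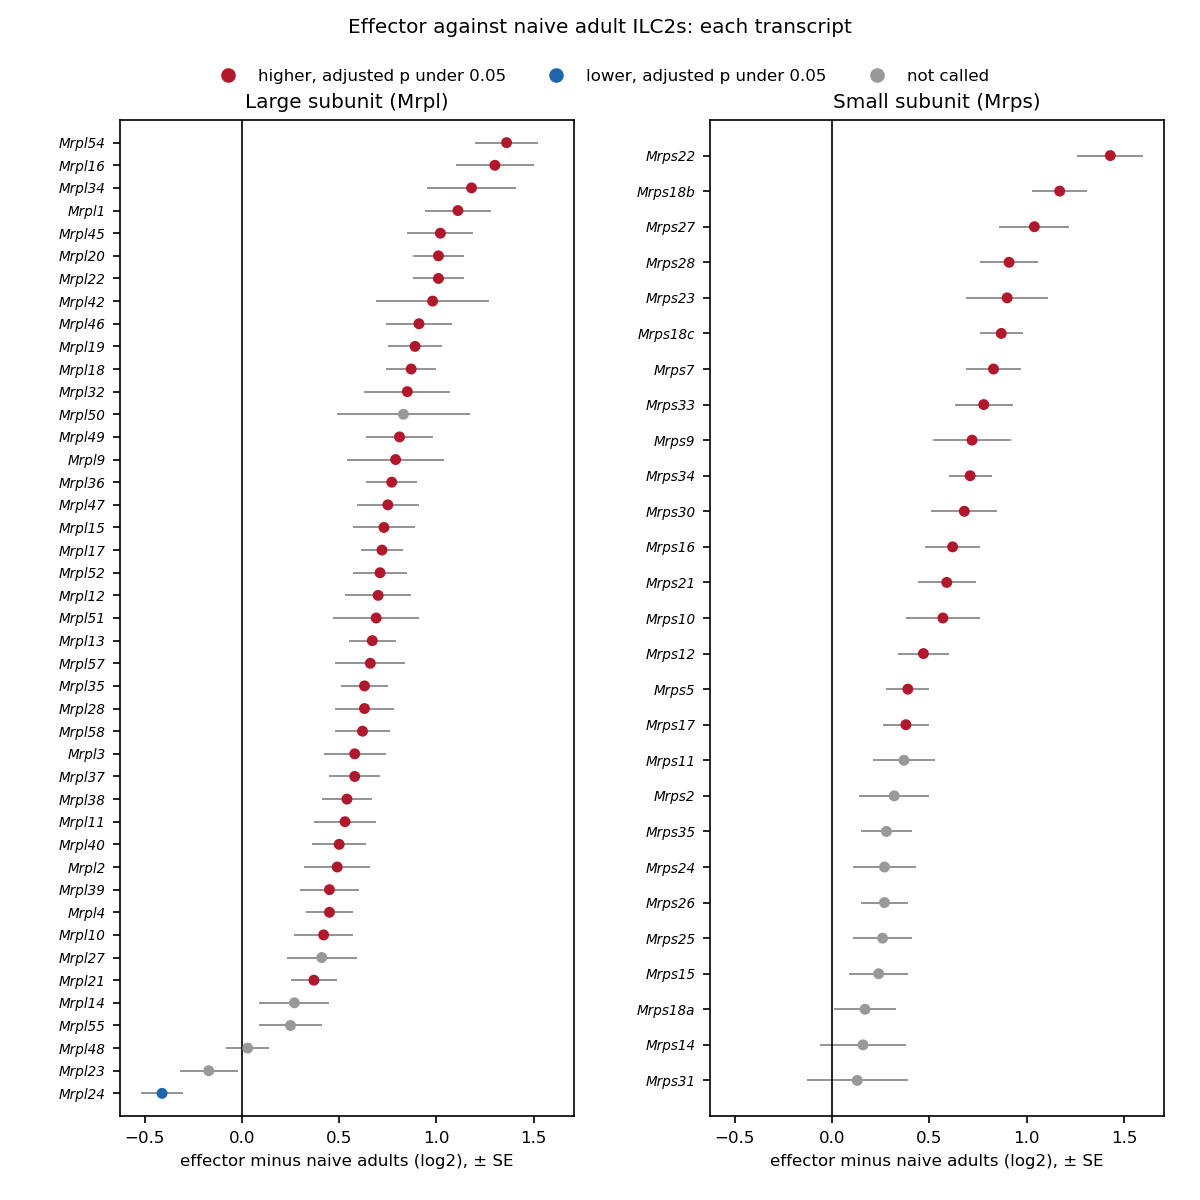
Difference between effector and naive adults for each tested gene (points, log2) with its standard error (lines), large subunit on the left and small on the right. Points lie right of 0 for 68 of 70 genes, from Mrps22 at 1.43 down to Mrpl24 at -0.41, the 1 gene called lower.

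The choice of scaling moved the whole table and the counts with it. Centring each array on its median raised the median over all genes to 0.17 and the share of higher genes among all calls to 83%, against 68.5% as deposited. The member median was then 0.78, with 58 genes called higher and 0 lower, and 58 of 70 (82.9%) stood beside 30.8% of all genes. A further quantile normalization gave 38 higher and 1 lower (54.3% higher, beside 18.9% of all genes). Naive male replicates 2 and 1 and neonatal replicate 2 were also left out, a choice made after seeing the data. This left 1 naive male array, weighted as much as the naive females together. The member median was then 0.65, against 0.02 over all genes. Proliferation markers moved with the comparison: 12 of 12 tested were called higher in effector adults, with a median difference of 3.46, and the mean level of the list spanned 8.42 to 8.97 in effector adults and 5.18 to 5.54 in naive adults. Of the markers of other cell types, those of T cells were called lower in 2 of 6 cases (33.3%, beside 10.9% of all genes). Each of the other lists had at most 1 call in either direction. Of 2 tested B cell markers, Ighm, an immunoglobulin heavy chain gene, was lower (-2.19) and the other was higher (1.00). Mki67, the classical proliferation marker, averaged 10.42 in effector adults and 5.55 in naive adults. Their part in the result was not tested.

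Both sexes were sampled in the adult groups, and the rise was seen in each. In females 14 genes were called higher, beside 10.2% of all genes, and Mrpl24 lower, beside 3.77%. The median difference was 0.38, and 5 genes were called higher and 0 lower when effector female replicate 2 was left out, beside 6.31% and 2.04% of all genes. In males 49 were called higher, beside 18.7% of all genes, and 0 lower, beside 6.25%, with 1 of 70 differences below 0 and a median of 0.86. Without naive male replicates 2 and 1 and neonatal replicate 2, 1 naive male array remained. The median in males was then 0.82, against 0.05 over all genes. The responses themselves were compared by the interaction term: limma called 0 of 70 genes and 0 of 16257, while 14 genes of the 70 and 866 of all had an unadjusted p under 0.05. The median of female minus male responses was -0.45, against -0.08 over all genes. Mrps5, a small subunit protein with a bacterial counterpart, had the smallest p, with a difference of responses of -0.78 ± 0.21 (limma adjusted p = 0.682); it was named after its value was seen.

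Within the effector state and within the naive state the sexes were also set against each other. Effector females against effector males gave 0 called genes (0.0308% of all genes), 1 at an unadjusted p under 0.05 (332 of all genes, 2.04%), and a median of -0.14. Naive females against naive males gave 0 called genes (0.209% of all genes), 20 at an unadjusted p under 0.05 (28.6%, beside 9.93% of all genes), and a median of 0.30, against 0.09 over all genes. Naive female arrays lay above naive male arrays without overlap for 22 genes, beside 10.1% of all genes. When naive male replicate 3 was left out, 1 gene was called. These values and the female and male responses share arrays.

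The second comparison set cells of neonates against effector adult cells. These groups differ in age and in IL-33 dosing at once, which cannot be told apart here. Mitochondrial ribosomal protein transcripts were lower in neonates: 27 of 43 large and 16 of 27 small subunit genes were called lower, 43 of 70 in all (61.4%), where 14.7% of all genes were. None was called higher, beside 5.93% of all genes, and 3 of 70 differences lay above 0. The median difference was -0.74 for the large and -0.56 for the small subunit, against -0.03 over all genes. Neonatal arrays lay below all effector arrays for 45 of 70 genes, beside 16.2% of all genes. Without neonatal replicate 1, 9 small subunit genes were called in place of 16.

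In the small subunit Mrps22 again had the largest difference. It was at 5.33, 4.96 and 4.95 in neonates, against 6.72 to 7.61 in effector adults, a difference of -2.04 ± 0.20, so that the level in effector adults was 4.11 times that in neonates (limma adjusted p = 1.34e-05, n = 3 and 6). No arrays overlapped. Mrps18b was at 7.15, 6.58 and 6.76 in neonates, against 7.94 to 8.35 in effector adults (-1.33 ± 0.17). Mrps27 was at 4.33, 4.87 and 5.06, against 5.56 to 6.32 in effector adults (-1.13 ± 0.22). Mrps23, found only in mitochondria, differed by -0.97 ± 0.25, a call that was lost without neonatal replicate 2 (-0.64, limma adjusted p = 0.103).

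For the large subunit, Mrpl42, another protein found only in mitochondria, had a large difference that 1 array enlarged. It was at 7.41, 5.88 and 8.17 in neonates, against 8.36 to 9.36 (median 8.84) in effector adults. All neonatal arrays were lower, replicate 2 by far. The difference was -1.70 ± 0.35 (limma adjusted p = 0.00378), and -1.07 without neonatal replicate 2 (limma adjusted p = 0.0132). Mrpl34 was at 6.06, 6.14 and 7.40 in neonates, against 7.79 to 8.39 in effector adults (-1.53 ± 0.29). Mrpl47, a counterpart of bacterial L29 at the exit of the peptide tunnel, was at 5.49, 5.20 and 5.65 in neonates, against 6.54 to 7.35 in effector adults (-1.41 ± 0.20). Its second feature gave -1.94. Mrpl46, part of the central protuberance, differed by -1.27 ± 0.21 (limma adjusted p = 0.000669). None of these genes had an array of neonates within the effector range.

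The remaining genes of chosen role were less clear. Mrpl12 differed by -0.64 ± 0.21 (limma adjusted p = 0.0416) and its second feature by 0.07, and the call was lost without any of neonatal replicates 2 or 3, effector female replicates 2 or 3, effector male replicates 2 or 3, or naive female replicate 1 (limma adjusted p from 0.0529 to 0.168). Mrpl58 differed by -0.66 ± 0.17 (limma adjusted p = 0.0125), and its call was lost without neonatal replicate 1 or 2 (limma adjusted p = 0.0565 and 0.0571) and under a further quantile normalization (limma adjusted p = 0.0624). Mrps18c was called lower (-0.57 ± 0.13), but not under that normalization (-0.35, limma adjusted p = 0.07). Mrps18a and Mrps30, at -0.41 ± 0.20 and -0.50 ± 0.20, did not pass the test (limma adjusted p = 0.162 and 0.0936). Mrps18a was called without neonatal replicate 3 (limma adjusted p = 0.0435) and Mrps30 without naive male replicate 3 (limma adjusted p = 0.043).

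**Figure D3:**
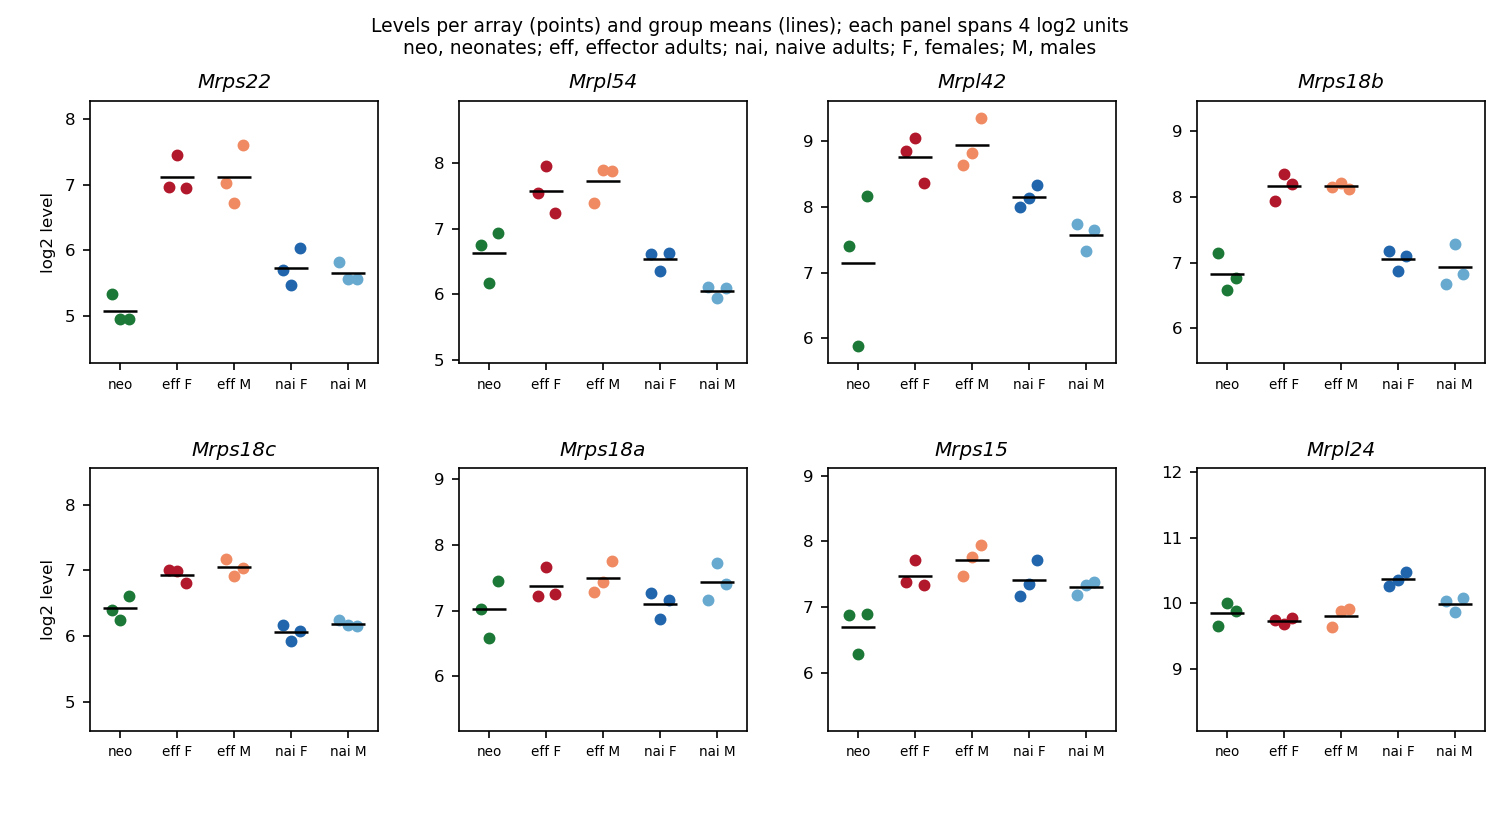
Levels (log2) of 8 genes on each array (points) with group means (lines), for neonates, effector females and males, and naive females and males. Each panel spans the same number of log2 units. Mrps22, Mrpl54, Mrpl42 and Mrps18b are highest in both effector groups, Mrps18c is also highest there while its paralog Mrps18a overlaps in all groups, Mrps15 is lowest in neonates, and Mrpl24 is highest in naive females.

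Centring the arrays moved the median over all genes to -0.14 in this comparison and the share of higher genes among all calls to 16.4%, against 28.8% as deposited, with 51 of the 70 genes called lower (72.9%, beside 19% of all genes). A further quantile normalization left 27 lower (38.6%, beside 9.93% of all genes). Without naive male replicates 2 and 1 and neonatal replicate 2, 37 were called lower (52.9%, beside 11.1% of all genes). All 12 tested proliferation markers were lower in neonates (median -1.30), at a mean list level of 7.31 to 7.78 in neonates and 8.42 to 8.97 in effector adults. Markers of T cells were called higher in neonates in 2 of 6 cases (33.3%) and of fibroblasts in 2 of 2, beside 5.93% of all genes. Those of the other 6 non-ILC2 lists were called higher in at most 1 case each. The largest of these was Sftpc, a surfactant protein gene of alveolar epithelium, which averaged 7.51 in neonates and 4.84 in effector adults (2.67 ± 0.46, limma adjusted p = 0.00103). The immunoglobulin heavy chain gene Ighm averaged 9.08 in neonates and 7.80 in effector adults (1.28 ± 0.26). The collagen genes Col1a1 and Col1a2 were higher in neonates by 0.43 ± 0.13 and 0.51 ± 0.14, and the mean level of the 4 fibroblast markers was 4.33 to 4.57 in neonates and 3.88 to 4.05 in effector adults. Their part in the result was not tested.

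The third comparison set neonates against naive adults, both untreated. Most mitochondrial ribosomal protein transcripts were not called different: 0 of 70 genes were called higher, beside 6.04% of all genes, and 2 lower, beside 4.12%. At an unadjusted p under 0.05 there were 15 of 70 (21.4%), a smaller share than the 4108 of all genes (25.3%). The median difference was -0.06 for the large and -0.02 for the small subunit, against 0.02 over all genes, with single genes between -0.80 and 0.51. Neonatal and naive arrays were apart for 2 genes higher (6.88% of all genes) and 6 lower (4.1% of all genes). A difference without a call does not show that the groups are alike.

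The genes called lower were Mrps15, the counterpart of bacterial S15, and Mrpl47. Mrps15 was at 6.88, 6.29 and 6.90 in neonates, against 7.17 to 7.72 (median 7.35) in naive adults, without overlap (-0.67 ± 0.18, limma adjusted p = 0.029). Mrpl47 was at 5.49, 5.20 and 5.65 in neonates, against 5.82 to 6.54 (median 6.11) in naive adults, without overlap (-0.67 ± 0.20, limma adjusted p = 0.0429). Both calls were fragile. That of Mrps15 was lost without neonatal replicate 2 (-0.47, limma adjusted p = 0.124) or naive female replicate 3 (-0.59, limma adjusted p = 0.0534). That of Mrpl47 was lost without neonatal replicate 1 or 2, effector female replicate 1, any effector male, naive female replicate 1 or 3, or naive male replicate 1 or 2, with limma adjusted p between 0.0519 and 0.144. Mrps22 was at 4.95 to 5.33 in neonates and 5.47 to 6.03 in naive adults, a difference of -0.61 ± 0.20 that missed the threshold (limma adjusted p = 0.0677). In this comparison 11 of 12 proliferation markers were called higher in neonates, with a median of 2.16, and Mki67 averaged 9.51 in neonates and 5.55 in naive adults. The lists of other cell types had at most 1 call each in either direction.

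Side by side, the 3 comparisons share arrays. Mrpl24 was at 9.65, 10.01 and 9.89 in neonates, within or near the effector range of 9.64 to 9.92, and its neonatal differences were 0.07 ± 0.13 from effector adults and -0.34 ± 0.13 from naive adults, neither called (limma adjusted p = 0.743 and 0.122). Mrps15 differed between effector and naive adults by 0.24 ± 0.15 (limma adjusted p = 0.225). Mrps28 was at 6.01, 6.46 and 5.93 in neonates, above all naive arrays at 5.48 to 5.90 but not called (0.37 ± 0.18, limma adjusted p = 0.228).

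Other genes of mitochondrial translation were read from lists. Of 13 translation factors 8 were called higher in effector than in naive adults (61.5%, beside 23.7% of all genes), with a median of 0.52. Examples were the release factor family gene Mtrf1 (1.30 ± 0.20), the elongation factor gene Gfm1 (1.03 ± 0.16) and Tufm, the elongation factor that brings in aminoacyl-tRNA (0.87 ± 0.13). In neonates 4 of 13 were lower than in effector adults (30.8%, beside 14.7% of all genes, median -0.46), among them Tsfm, the exchange factor for Tufm (-1.10 ± 0.24), and Mtrf1 (-0.92 ± 0.25). Against naive adults 1 was called (7.69%, beside 4.12% of all genes lower), Gfm2, a factor for ribosome recycling (-0.58 ± 0.17), and the median was 0.38.

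Assembly factors and rRNA-modifying enzymes prepare the mitochondrial ribosome. Of 26, 9 were higher in effector than in naive adults (34.6%, beside 23.7% of all genes, median 0.24), led by the GTPases Gtpbp10 (1.19 ± 0.33), Noa1 (0.99 ± 0.13) and Mtg1 (0.91 ± 0.23). In neonates 8 were lower than in effector adults (30.8%, beside 14.7%, median -0.52), led by the pseudouridine synthase family gene Rpusd4 (-1.31 ± 0.26), Noa1 (-1.27 ± 0.15) and Mettl17, a small subunit assembly factor (-1.11 ± 0.21). Rpusd4 and Mettl17 were also called lower in neonates than in naive adults (-1.17 ± 0.26 and -1.05 ± 0.21). Of 3 tested mitochondrial ribosomal proteins with other symbols, Gadd45gip1 was higher in effector than in naive adults (0.42 ± 0.12) and Ptcd3 was lower in neonates than in effector adults (-0.84 ± 0.21).

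Cytosolic ribosomal proteins were the nearest list in function. Of 55 tested, 12 were higher and 0 lower in effector than in naive adults, and the 21.8% called higher lay near the 23.7% of all genes, with a median of 0.12. In neonates 0 were higher and 10 lower than in effector adults (18.2% lower, beside 14.7% of all genes, median -0.19). Against naive adults 2 were higher (3.64%, beside 6.04%) and 3 lower (5.45%, beside 4.12%), with a median of -0.12. The difference between the lists was not tested.

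Transcripts of the mitochondrial genome are what the mitochondrial ribosome translates or contains. Of 10 tested, 0 were called higher and 1 lower in effector than in naive adults, ND4L (-0.59 ± 0.22), beside 23.7% and 10.9% of all genes, with a median of -0.05. In neonates 3 were lower than in effector adults (30% beside 14.7% of all genes, median -0.40), the complex I subunit genes ND2 (-0.85 ± 0.18), ND3 (-0.64 ± 0.19) and ND1 (-0.43 ± 0.13). Against naive adults 3 were lower in neonates (30% beside 4.12%, median -0.30), ND4L (-1.25 ± 0.27), ND2 (-0.99 ± 0.18) and ND3 (-0.90 ± 0.19).

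**Figure D4:**
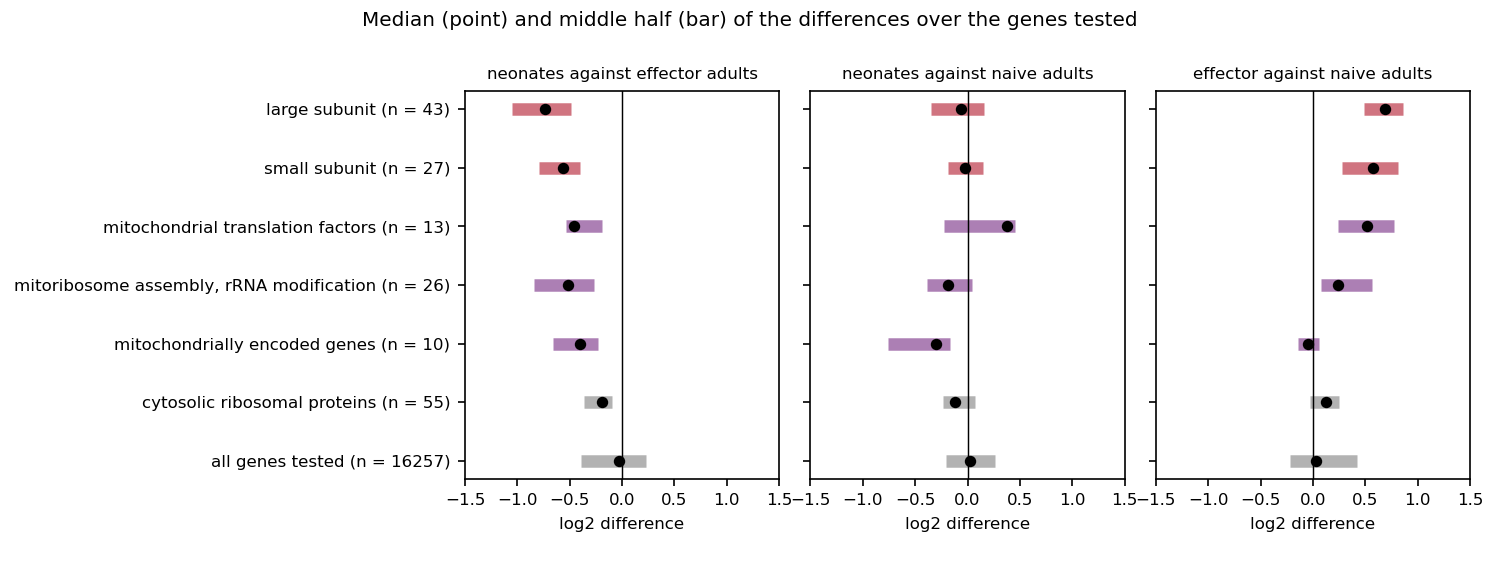
Median (points) and the span from the lower to the upper quartile (bars) of the log2 differences over the tested genes of each list, for neonates against effector adults, neonates against naive adults, and effector against naive adults. Both subunits lie near 0 only in the middle panel, at -0.06 and -0.02, and stand farther from 0 than cytosolic ribosomal proteins in the other panels.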

How the data were processed

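Total RNA was extracted with Trizol and biotin-labelled with a Nugen Encore kit, per the labels' protocols. The deposited values are log2 expression levels that the authors obtained from Affymetrix Expression Console with RMA, per the submitters' processing notes. Its versions and settings, not given in the sources used here, are unknown, and the log2 scale was read from the range of the values. Precision is limited by the number of arrays.

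Of 41345 features, 23521 had exactly 1 symbol. Features above their array's percentile 40 in at least 3 arrays were kept, and the feature with the highest mean represented a gene. Group means were fitted with limma 3.58.1 in R 4.3.3 on all 15 arrays (10 residual and 5.05 prior degrees of freedom), adult sexes weighted equally, tests two-sided, p adjusted over 16257 genes. Members, gene lists and tests were chosen with earlier results of these data known.

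Named genes were, per main comparison and subunit, up to 4 called members with the largest rise and fall, 6 members of chosen role, up to 3 called genes per list (not all are printed), members below the filter, and Gata3, Il7r and Mki67.

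In simulated data with the same groups, 100 of 16257 genes were moved by 1 log2 unit and another 100 by more. Each gene had 1 spread for all groups. Of those moved by 1 unit, 80 were found for effector against naive adults, 66 for neonates against effector adults and 65 for neonates against naive adults. False calls among the genes not moved were 8, 7 and 11. In the data far more genes were called, 3855 higher and 1773 lower between effector and naive adults. The groups of the data also differed in spread. Fitted array weights, lower for more variable arrays, were 0.41 to 0.612 in neonates and 1.285 to 1.998 in effector adults. The rates from simulated data may therefore not carry over. The labels do not say that replicate numbers pair arrays, so the numbers were not used in that way. Deviations from group means correlated at -0.088 to 0.121 (median 0.006) between same-numbered replicates of different groups. Between different-numbered replicates they correlated at -0.098 to 0.077 (median 0.004). Alternatives covered the filter, scaling, prior, weights, block, feature choice, fold threshold and each array left out. The NRF1 motif was shortened to its core after a longer form, held by fewer windows of members and of all genes, had been searched. Figures were drawn with matplotlib 3.10.9.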

Additional observations from a re-analysis of the deposited data

How the results depend on the processing

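Over the alternatives run, of 35 results on named genes 0 reversed, that is, changed sign with a call before or after. Changes of sign without a call were not counted, and some calls were lost or gained, as given for single genes above. The median differences between neonates and naive adults crossed 0 when 1 array was left out, between -0.18 and 0.03 (large) and -0.08 and 0.04 (small). With any 1 array left out, effector minus naive medians stayed between 0.63 and 0.74 (large) and 0.45 and 0.60 (small). Then 30 to 38 and 15 to 19 genes were called. For both subunits together the share called higher ran from 62.9% (beside 20.5% of all genes) to 77.1% (beside 24.7%). For neonates against effector adults, leaving out 1 array gave 23 to 30 large and 9 to 18 small subunit genes. Of both subunits together, 47.1% (beside 11.2% of all genes) to 65.7% (beside 15.1%) were called lower. A further quantile normalization left 8 small subunit genes called and a small subunit median of -0.35, and array weights left 10. Of both subunits together, 38.6% and 50% were then lower, beside 9.93% and 9.61% of all genes. For neonates against naive adults, leaving out 1 array gave 0 to 2 genes in each subunit. At most 4.29% of members were called lower, beside 5.03% of all genes, and 1.43% higher, beside 6.01%. The large subunit count was 0 without a filter, after centring, after quantile normalization, with array weights, with only the arrays compared and without the 3 least correlated arrays (chosen after seeing the data); the small subunit count was 0 under the last 3 of these. The response in females gave 8 genes higher (11.4%, beside 7.89% of all genes) and 1 lower (1.43%, beside 3.91%) after quantile normalization. With 1 array left out it gave 5 to 16 calls. At 5, without effector female replicate 2, the 7.14% called higher lay near the 6.31% of all genes. That in males gave 31 without the 3 least correlated arrays and 38 to 50 with 1 array left out. Naive females against naive males gave 0 to 1. With the replicate block, effector against naive adults kept 53 higher (75.7%, beside 23.3% of all genes) and 1 lower (1.43%, beside 10.6%). Neonates against effector adults gave 42 lower (60%, beside 14.1%). The block moved no count by over 1.5 times, but the Mrpl12 call between neonates and effector adults was lost (limma adjusted p = 0.0584). Where the cause of such a change is not its own construction, the cause was not tested. With 3 arrays a group, differences under 1 log2 unit can be missed, and Mrps14 and Mrps36 lay near background.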

Other observations

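Nuclear genes for mitochondrial transcription and RNA handling were also read as a list. Of 19 tested, 8 were higher and 1 lower in effector than in naive adults (42.1% and 5.26%, beside 23.7% and 10.9% of all genes). Tfam, which packages mitochondrial DNA and starts its transcription, averaged 6.64 in effector adults and 5.44 in naive adults (1.19 ± 0.26, limma adjusted p = 0.00261), and Tfb2m, its partner in transcription initiation, was higher by 1.13 ± 0.33. Prorp, the protein-only RNase P that cuts transfer RNAs from mitochondrial transcripts, was higher by 1.01 ± 0.13. Polg2, the accessory subunit of the mitochondrial DNA polymerase, averaged 7.62 in effector adults and 8.6 in naive adults (-0.97 ± 0.16). Neonates had 1 gene higher than effector adults (5.26%, beside 5.93% of all genes) and 5 lower (26.3%, beside 14.7%). The higher gene was Polg2 (8.72 in neonates and 7.62 in effector adults). Against naive adults 1 gene was called lower in neonates (5.26%, beside 4.12% of all genes), Trmt10c, a subunit of mitochondrial RNase P (-0.75 ± 0.16).

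Among 10 regulators of mitochondrial biogenesis, 3 were higher in effector than in naive adults, Myc (0.74 ± 0.19), Gabpa (0.71 ± 0.15) and Pprc1, a coactivator of the PGC-1 family (0.70 ± 0.17), and Mycn was lower (-0.59 ± 0.20). These shares, 30% higher and 10% lower, lay near those of all genes (23.7% and 10.9%). Nrf1 averaged 7.41 in effector adults and 7.13 in naive adults, a difference of 0.27 ± 0.16 that did not pass the test (limma adjusted p = 0.192). In neonates Pprc1 and Esrra were called lower than in effector adults (-0.64 ± 0.21 and -0.52 ± 0.14), 20% beside 14.7% of all genes. Gabpa and its partner Gabpb1 were higher in neonates than in naive adults, by 0.76 ± 0.19 and 1.02 ± 0.31 (20%, beside 6.04% of all genes).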
